A study of Mus musculus with 48 samples.

Results

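Chromatin accessibility was examined around 9 genes that mark early mesoderm, Mesp1, Mesp2, Msgn1, Hand1, Hand2, Kdr, Pdgfra, Cdx1 and Cdx2, in P19 cells at 4 levels of NODAL/Activin signalling. Every ATAC-seq peak with a base within 50 kb of a curated RefSeq transcription start site of these genes was taken. This gave 341 of the 897310 peaks in the 4 lists. Peaks of the 4 lists that overlapped by at least 1 bp were joined into regions, and 102 of the 287329 regions lay within the windows, between 7 for Kdr and 17 for Hand1. The windows of Mesp1 and Mesp2 overlap, and the regions that they share were counted once.

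P19 is a mouse embryonic teratoma line. ATAC-seq maps open chromatin by the insertion of the Tn5 transposase, here in 100000 cells per reaction grown in serum-containing medium. The SB-431542 state was cells kept overnight in 10 µM of this inhibitor of the NODAL/Activin type I receptors, washed and returned to the inhibitor for 1 h. The 1 h and 8 h Activin states were cells taken out of the same overnight inhibitor by washing and then stimulated with Activin at 20 ng/ml, for 1 h or for 8 h. Untreated cells were labelled as receiving neither agent and signal continuously through the NODAL and GDF3 that they secrete, so they also differ from the other states in never having been washed out of the inhibitor. The authors merged 2 biological replicates of each state before peak calling. A state is therefore a single merged list. The spread of replicates is unknown, nothing was tested, and every difference is one between 2 lists.

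NODAL and Activin act through SMAD2 and SMAD3, which are brought to DNA by partners such as FOXH1, and in the gastrulating embryo this signal, together with WNT and BMP, drives cells into the primitive streak and on to mesoderm. Mesp1 and Mesp2 encode related bHLH factors, the first known for the earliest heart and head mesoderm and the second for the boundaries of the forming somites. Msgn1 encodes the bHLH factor of presomitic mesoderm. Hand1 and Hand2 encode bHLH factors of lateral mesoderm and heart, Kdr and Pdgfra encode receptor tyrosine kinases of vascular and of paraxial and cardiac progenitors, and Cdx1 and Cdx2 encode homeodomain factors that pattern the posterior body.

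The value given for a peak is its fold enrichment, the ratio of the reads over the peak to the local background as written by the peak caller, with 1 meaning no enrichment. For these broad peaks it is a mean along the peak. A peak is also given with its -log10 q, a measure of its strength over background. Because fold enrichment was lower in one list as a whole (its median over the regions shared by all lists moved by -0.10 on the log2 scale at 1 h), each shared region was ranked within its own list and its percentile was compared with that in the SB-431542 list. A shared region was called higher or lower where its percentile moved by more than 10 points, and a region was called gained or lost where only one of the 2 lists held a peak. A missing peak says only that the authors' threshold was not passed. The weakest peaks of the lists, those with a -log10 q below 1.5, had a median fold enrichment between 1.55 and 1.63. In bulk cells, a larger share of cells with open chromatin and more open chromatin per cell cannot be told apart.

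The lists held between 209212 and 234758 peaks, and the relative depth read from their lowest background was 92.6% of the SB-431542 list for 1 h of Activin, 79.0% for 8 h and 84.8% for untreated cells. Promoters of 12 genes used in pluripotent cells had a peak in 12, 12, 11 and 12 cases, whereas 2 of 12 genes of differentiated cell types (Ptprc and Neurod1) had one in each list. The promoter window, which spans 1000 bp before and 100 bp after a start site, held a peak for 6 of the 9 early mesoderm genes in SB-431542, 7 at 1 h, 8 at 8 h and 8 in untreated cells. The genes that differed were Mesp2, Msgn1 and Hand1, whose promoter peaks had a fold enrichment between 1.67 and 2.25. Promoters of 40 other mesoderm genes held one in 39 cases in every list, Meox1 being the exception. With the signal blocked, 83 of the 102 regions (81.4%, against 80.1% of all regions) already held a peak.

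**Figure D1:**
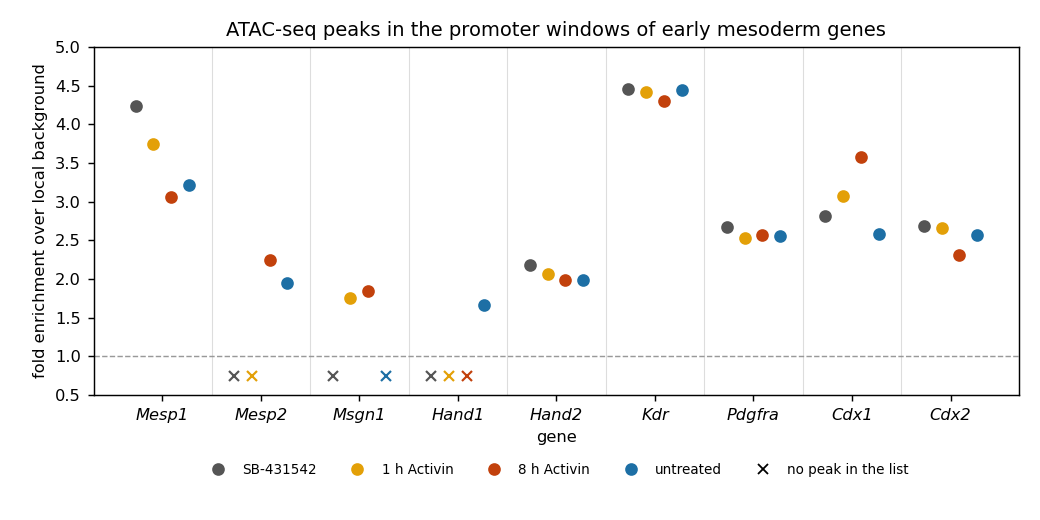
Fold enrichment of the strongest peak in the promoter window of each gene (vertical axis, ratio to local background) in the 4 merged lists, with crosses where a list held no peak and a dashed line at 1. Mesp2, Msgn1 and Hand1 were the genes with a list that lacked a promoter peak, and the Kdr values lay between 4.30 and 4.46.

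Of the 102 regions, 66 had a peak in all 4 lists (64.7%, against 56.6% of all regions). The next most frequent pattern was a peak at 8 h and in untreated cells but not in the other lists, seen in 7 regions (6.86%, against 2.65% of all regions). A peak at 8 h alone was seen in 6 regions (5.88%, against 2.95%), and a peak in SB-431542 and at 1 h alone also in 6 (5.88%, against 6.5%). The 8 h and untreated lists were the shortest. With lists of equal length the share of all regions gained at 8 h went from 8.12% to 12.7%, against 14% for these genes. By position of their centre, 44 regions were intergenic, 40 intronic, 12 exonic and 6 promoter regions, and the closest start site belonged to one of the 9 genes for 46 of them. The other regions lie nearer to neighbours such as Wdr93, Pdgfrb, Urad or Hdnr, so a difference there cannot be assigned to an early mesoderm gene.

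After 1 h of Activin few of the regions differed from SB-431542. Peaks were gained in 3 regions, 2 around Hand1 and 1 in Kdr (2.94%, against 9.48% of all regions), and lost in 8 (7.84%, against 9.86%). Of the 66 shared regions 3 were higher (4.55%, against 11.3% of all shared regions) and 8 were lower (12.1%, against 12.1%). The 3 gained peaks were weak, with a -log10 q of at most 2.97. The shares of gained and of higher regions were below those of all regions. Low shares were common to regions near genes: over the 117519 regions within 50 kb of the start site of any protein-coding transcript 5.82% were gained and 8.44% higher, and over 40 other mesoderm genes 4.54% and 9.43%. With peaks of a -log10 q of at least 5, 2.53% of the regions were gained at 1 h, against 3.73% of all regions.

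After 8 h of Activin peaks were gained in 13 regions (12.7%, against 8.12% of all regions), 4 of them in the Mesp1 and Mesp2 windows and 3 around Msgn1. Peaks were lost in 14 regions (13.7%, against 17.1%), 5 of them around Hand1. Of the shared regions 14 were higher (21.2%, against 18.7%) and 8 were lower (12.1%, against 18.5%). Over regions near any protein-coding transcript the shares gained, lost, higher and lower were 7.82%, 14.9%, 14.5% and 17.5%. The median shift over the 66 shared regions was -0.50 points, against -0.17 over all shared regions. The gained peaks had a median -log10 q of 3.40, and 5 of them reached 5. The 8 h list was the shortest, and with all lists cut to its length the share gained was 14% against 12.7% of all regions, and the share lost 12% against 13.2%.

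In untreated cells peaks were gained in 10 regions (9.8%, against 10.6% of all regions) and lost in 11 (10.8%, against 15.6%). Of the shared regions 13 were higher (19.7%, against 19.9%) and 8 were lower (12.1%, against 18.8%). The median shift was -0.55 points, against 0.08 over all shared regions. Over regions near any protein-coding transcript the shares gained, lost, higher and lower were 9.65%, 14.2%, 16% and 17.5%. All 3 comparisons use the same SB-431542 list, so a high or low value in that list enters each of them.

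**Figure D2:**
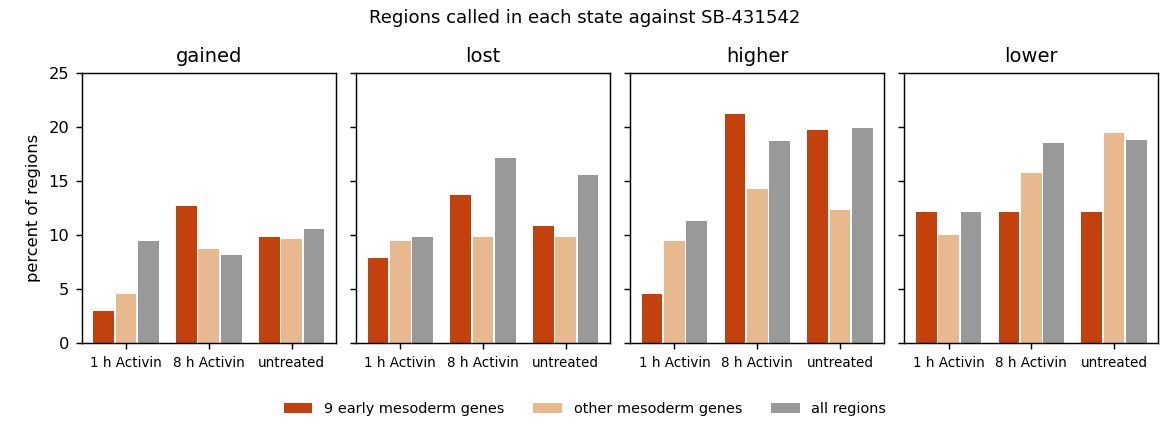
Percent of regions gained, lost, higher and lower against SB-431542 (vertical axis, from 0) for the 9 early mesoderm genes, the 40 other mesoderm genes and all regions. Bars have no error bars, since there is 1 list per state, and the share gained at 8 h reads 12.7% for the early mesoderm genes against 8.12% for all regions (14% against 12.7% with lists of equal length).

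How many shared regions were called depended on the measure. When read height was estimated from the fold enrichment and the p-value and scaled by its median, with a difference of more than 1.5 times as the limit, no shared region was called at 1 h, 2 were called at 8 h and 5 in untreated cells. In 6 of those 7 cases the region was also called in that direction by rank. They were the Cdx1 promoter and a Hand2 region 2.90 kb upstream at 8 h, and in untreated cells the same Hand2 region, a Hand1 region 18.3 kb downstream, a Kdr region 36.6 kb downstream and a Msgn1 region 45.2 kb downstream. The seventh was a Cdx2 exon region 5.70 kb downstream, which was lower in untreated cells by read height (log2 -0.84) with a rank shift of -2.95 points. Its percentile was 2.97 in SB-431542 and 0.03 in untreated cells. A fall past the rank limit could not occur from there, so rank cannot decide this case.

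Mesp1 and Mesp2 lie head to head on chromosome 7, with start sites at 79793590 and 79810727 in mm10. Mesp2 was the one gene with a peak over its start site at 8 h and in untreated cells and in neither of the other lists. The Mesp2 promoter region, chr7:79810531-79811043, had no peak in SB-431542 and none at 1 h, a fold enrichment of 2.25 at 8 h (-log10 q 5.76, width 476 bp, about 122 reads by estimate) and of 1.95 in untreated cells (-log10 q 3.63, 506 bp, about 117 reads). Both values were above those typical of the weakest peaks. The 250 bases before the Mesp2 start site are shown because this is where the new peak began, with matches to the searched motifs in capitals, here the ZIC motif CAGCAGG that starts 12 bases before the start site. They lie on the plus strand at chr7:79810477-79810726 (RefSeq, GRCm38.p6, the assembly of mm10).
Mesp2 promoter: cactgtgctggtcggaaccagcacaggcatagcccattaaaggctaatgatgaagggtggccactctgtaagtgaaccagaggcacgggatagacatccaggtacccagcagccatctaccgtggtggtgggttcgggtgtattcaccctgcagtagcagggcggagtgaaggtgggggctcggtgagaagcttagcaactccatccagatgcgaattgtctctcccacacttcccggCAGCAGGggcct
A match to the FOXH1 motif AATCCACA started at base 25 of the Mesp2 transcript, inside the peak. It is shown in capitals between its flanks, from chr7:79810741-79810768.
Mesp2 FOXH1 match: gaggggtcagAATCCACAcctctgcaaa
That motif was held by 0.855% of 32851 RefSeq promoters of 300 bases, and by 1 of the 7 found for the early mesoderm genes. Entries for Hand1 and Cdx1 were not used here. A match describes letters, not binding.

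The Mesp1 promoter region, chr7:79792298-79793796, was open in all states, with a fold enrichment of 4.23 in SB-431542, 3.75 at 1 h, 3.06 at 8 h and 3.21 in untreated cells. The 2 states with a longer signal were the lower ones. The ratio to SB-431542 was 0.723 at 8 h, with a 95% interval from 0.669 to 0.782 that covers counting error only, and 0.759 in untreated cells (0.704 to 0.819). The ranks shifted by -18.6 and -14.7 points. The local background moved with this result: over the Mesp1 window its median was 1.44 times the lowest background of the list in SB-431542, 1.197 times at 1 h, and 1.82 and 1.84 times at 8 h and in untreated cells. The estimated read height at the Mesp1 promoter, scaled by its median, differed by -0.11 on the log2 scale at 8 h and by -0.10 in untreated cells. The part of the background in the lower fold enrichment was not tested. The sequence before the Mesp1 start site, on the minus strand at chr7:79793591-79793840, is given for comparison with Mesp2. Its capitals mark the TCF/LEF motif ATCAAAG, read as its reverse complement and starting 31 bases before the start site.
Mesp1 promoter: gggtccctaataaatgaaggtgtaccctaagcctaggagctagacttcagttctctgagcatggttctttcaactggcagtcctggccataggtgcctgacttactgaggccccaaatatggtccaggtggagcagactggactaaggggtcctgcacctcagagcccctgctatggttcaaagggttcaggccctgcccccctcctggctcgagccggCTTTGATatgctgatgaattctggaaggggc

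Between and around the pair, the Mesp windows lost no peak in any comparison. Each window held 12 regions, 8 of them with a peak in SB-431542. Over all regions 9.86% were lost at 1 h, 17.1% at 8 h and 15.6% in untreated cells. The strongest gain at 8 h by -log10 q was an intergenic region 3.72 kb upstream of Mesp1, chr7:79797107-79797515, with a fold enrichment of 1.97 (-log10 q 8.56, 409 bp) and no peak in the other 3 lists. Its central 300 bp, chr7:79797161-79797460 on the plus strand, are shown because they carry a TCF/LEF match and, 10 bases further, a match to the motif of GATA factors, AGATAAG. Both are reverse complements and in capitals.
Mesp1 3.72 kb upstream: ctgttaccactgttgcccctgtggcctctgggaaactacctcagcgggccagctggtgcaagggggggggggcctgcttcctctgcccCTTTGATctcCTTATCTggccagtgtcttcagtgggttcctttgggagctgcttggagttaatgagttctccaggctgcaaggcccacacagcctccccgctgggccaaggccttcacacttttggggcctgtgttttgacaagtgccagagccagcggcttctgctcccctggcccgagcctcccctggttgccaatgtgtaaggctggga
A region 4.08 kb downstream of Mesp1, chr7:79789203-79789811, had a peak of 1.65 at 8 h and 1.79 in untreated cells and none in the other lists. A region in an intron of Wdr93, 27.8 kb downstream of Mesp1, had the same pattern with 1.79 and 1.74. Of the 4 regions of the windows with a peak at 8 h but not in SB-431542, 3 held a T-box match (GGTGTGA) in their central 300 bp, which was true of 9 of the 102 regions and of 4.36% of all regions. These 4 were picked by their pattern, so the count is a description.

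The shared Mesp regions gave values in both directions. An exonic region of Mesp2, 1.95 kb downstream of its start site, had a fold enrichment of 1.97 in SB-431542, 1.83 at 1 h, 2.45 at 8 h and 2.27 in untreated cells, which is higher at 8 h by 24.1 points. The 8 h ratio of 1.24 had a counting interval from 0.918 to 1.69, which holds 1. Another 2 regions near Mesp1 were lower at 8 h. One, 7.23 kb downstream, had 3.38, 3.36, 2.64 and 2.48 in the order SB-431542, 1 h, 8 h and untreated, and the other, 5.98 kb upstream, had 2.97, 2.69, 2.37 and 2.74. By estimated read height these differed from SB-431542 at 8 h by -0.04 and 0.21 on the log2 scale, beside the higher local background. A region 9.24 kb downstream of Mesp2, chr7:79818244-79821692, had 3.40, 4.87, 3.77 and 3.296. The high 1 h value came from the stronger of 2 peaks into which the region was split in that list, and with the mean over both peaks, weighted by width, the 1 h shift was -13.6 in place of 22.8 points.

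**Figure D3:**
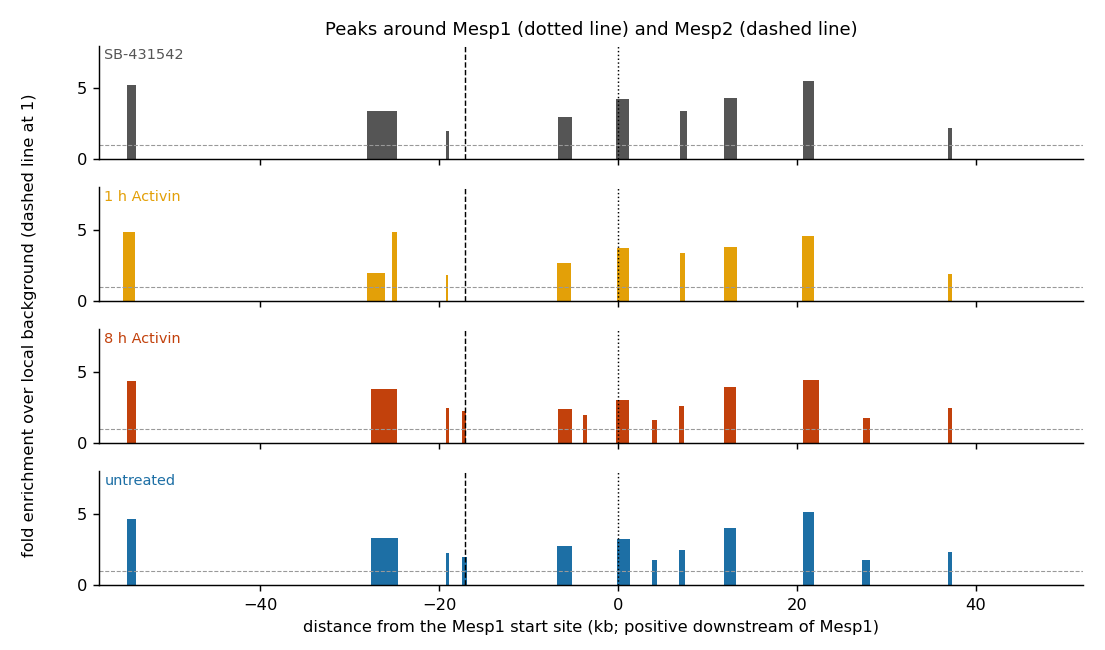
Peaks of the 4 lists around Mesp1 (dotted line) and Mesp2 (dashed line), plotted by distance from the Mesp1 start site in kb (horizontal axis) and fold enrichment (vertical axis, ratio to local background, from 0). Bars at the dashed line appear at 8 h and in untreated cells, at 2.25 and 1.95, while the bar at the dotted line goes from 4.23 in SB-431542 to 3.06 at 8 h.

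Msgn1, on chromosome 12 with its start site at 11208948, had a weak promoter region, chr12:11208289-11209114. Its fold enrichment was 1.67 in SB-431542, 1.76 at 1 h and 1.84 at 8 h, and untreated cells had no peak. All 3 values were near those of the weakest peaks, and the SB-431542 peak, 468 bp wide, lay outside the promoter window. The 250 bases before the start site, on the minus strand at chr12:11208949-11209198, hold one TCF/LEF match (capitals) 203 bases before it, and they are shown because TCF/LEF matches were found in the promoters of Mesp1 and Msgn1 and in none of the other 5 (3.73% of all promoters).
Msgn1 promoter: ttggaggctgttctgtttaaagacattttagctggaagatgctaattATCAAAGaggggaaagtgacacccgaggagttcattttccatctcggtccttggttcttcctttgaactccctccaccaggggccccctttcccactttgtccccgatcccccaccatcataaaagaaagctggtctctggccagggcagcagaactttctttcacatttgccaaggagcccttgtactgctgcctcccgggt

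Most of the calls around Msgn1 at 8 h were in one direction. Of its 7 shared regions 5 were higher and none was lower, where 18.7% and 18.5% of all shared regions were. Of its 11 regions 3 were gained and none was lost, where 8.12% and 17.1% of all regions were. Msgn1 was singled out for this count after the values were seen, and the median shift was 14.1 points, the largest of the 9 genes in any comparison. At 1 h no shared region of Msgn1 was called and no peak was gained or lost. The widest of the regions, in an intron of the long non-coding RNA 9530020I12Rik 11.4 kb downstream (chr12:11196033-11198966), had a fold enrichment of 3.08 in SB-431542, 3.08 at 1 h, 3.82 at 8 h and 3.51 in untreated cells. The 8 h ratio was 1.24 (counting interval 1.186 to 1.297). An intergenic region 13.3 kb upstream, chr12:11221650-11222913, had 1.95, 1.98, 2.42 and 2.36, and its widths, from 1243 to 1262 bp, hardly differed. Its central 300 bp at chr12:11222131-11222430 are shown as the Msgn1 region with the largest upward shift (24.0 points at 8 h and 21.2 in untreated cells), and none of the 12 motifs was found in them.
Msgn1 13.3 kb upstream: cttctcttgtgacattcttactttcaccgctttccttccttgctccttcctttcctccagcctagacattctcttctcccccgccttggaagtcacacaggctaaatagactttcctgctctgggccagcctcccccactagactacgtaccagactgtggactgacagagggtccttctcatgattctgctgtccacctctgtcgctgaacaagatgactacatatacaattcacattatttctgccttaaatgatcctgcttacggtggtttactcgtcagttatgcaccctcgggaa
By estimated read height these 2 regions were higher at 8 h by 0.31 and 0.50 on the log2 scale, both under the limit of 1.5 times. A region 8.08 kb upstream had 3.05, 3.20, 3.66 and 3.12 and widened from 400 bp in SB-431542 to 1230 bp at 8 h. In a region 16.4 kb upstream, with 3.15, 2.98, 3.64 and 3.54, the covered width went from 2052 to 902 bp at 8 h as the peak split, so that its higher mean stood beside a narrower peak. The part of the width in these values was not tested.

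The 3 regions gained at 8 h around Msgn1, 6.08, 23.7 and 28.6 kb upstream, had a fold enrichment between 1.61 and 1.88, with a -log10 q of at most 2.83, close to the threshold. In untreated cells 3 of the 7 shared Msgn1 regions were higher and 1 was lower, where 19.9% and 18.8% of all shared regions were. The lower one, chr12:11163470-11163953 at 45.2 kb downstream and nearer to Kcns3, had 4.06 in SB-431542, 3.28 at 1 h, 3.42 at 8 h and 2.34 in untreated cells. The untreated ratio was 0.575 (counting interval 0.443 to 0.746), on a covered width of 472 bp in SB-431542 and 245 bp in untreated cells, and the read height differed by -0.89 on the log2 scale.

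Hand1, on chromosome 11 with its start site at 57832147, had the most regions of the 9 genes and the fewest peaks at its promoter. The only peak in the promoter window was one of 200 bp in untreated cells, 540 bp upstream, with a fold enrichment of 1.67 and about 39 reads by estimate. Of the 17 Hand1 regions 5 were lost at 8 h and none was gained, where 17.1% and 8.12% of all regions were. At 1 h 4 were lost and 2 gained (9.86% and 9.48% of all regions). In untreated cells 6 were lost and 2 gained (15.6% and 10.6% of all regions). The lost peaks were weak: the strongest, 23.6 kb upstream, had 2.13 in SB-431542 (-log10 q 6.08) and no peak in the other 3 lists.

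The strongest Hand1 regions were not called in any comparison. The one with the highest fold enrichment, 37.0 kb upstream, had 5.49 in SB-431542, 5.08 at 1 h, 5.28 at 8 h and 4.67 in untreated cells. One 12.0 kb downstream had 5.18, 4.12, 4.41 and 4.52, with a lowest shift of -6.74 points. Their SB-431542 percentiles were 92.4 and 90.4, too close to the top for a higher call to occur. For the region 12.0 kb downstream all 3 ratios, 0.795, 0.851 and 0.872, had counting intervals below 1 (upper bounds 0.908, 0.9635 and 0.989). For the one 37.0 kb upstream the 1 h and 8 h intervals held 1, and the untreated ratio was 0.850 (0.747 to 0.967). Called in all 3 comparisons was an intergenic region 18.3 kb downstream, chr11:57813630-57814119, with 2.21 in SB-431542, 1.68 at 1 h, 2.00 at 8 h and 3.304 in untreated cells. It was lowest at 1 h, but the 1 h and 8 h ratios had counting intervals that held 1. They were 0.762 (0.570 to 1.017) and 0.905 (0.679 to 1.206). The region was highest without treatment, where the ratio was 1.498 (counting interval 1.19 to 1.89), the shift 36.2 points and the read height 0.66 higher on the log2 scale. This was the largest upward shift of rank of any shared region of the 9 genes, so its central 300 bp, chr11:57813724-57814023, are shown, with a CDX match (CCATAAA, as its reverse complement) in capitals, a motif held by 3.6% of all regions.
Hand1 18.3 kb downstream: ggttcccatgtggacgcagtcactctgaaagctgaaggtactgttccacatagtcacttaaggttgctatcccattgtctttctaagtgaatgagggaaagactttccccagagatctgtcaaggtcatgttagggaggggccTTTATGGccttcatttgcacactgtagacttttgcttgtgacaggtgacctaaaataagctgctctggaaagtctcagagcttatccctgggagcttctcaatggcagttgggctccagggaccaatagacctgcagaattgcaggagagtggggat

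**Figure D4:**
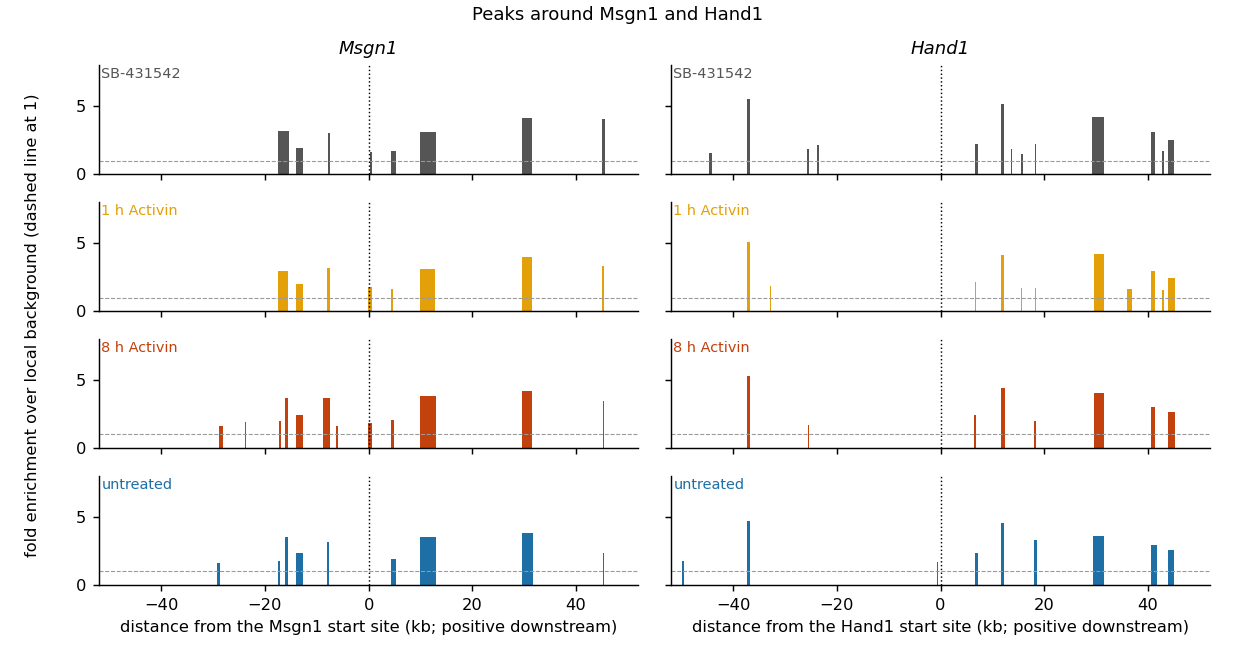
Peaks of the 4 lists around Msgn1 (left) and Hand1 (right), by distance from the start site (horizontal axis, kb, dotted line at 0) and fold enrichment (vertical axis, ratio to local background, from 0). Around Msgn1 the 8 h list has 11 regions against 8 in SB-431542, and around Hand1 it has 8 against 13.

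Hand2, on chromosome 8 with its start site at 57320983, stood in a block of raised background. The median background of its regions was 4.45 times the lowest of the list in SB-431542, 4.03 at 1 h, 4.02 at 8 h and 3.88 in untreated cells, against medians between 1.09 and 1.10 over all regions. The background in SB-431542 was 27.6 reads 39.9 kb upstream, reached 196 at 4.71 kb downstream and was back at 27.2 at 40.5 kb downstream. Fold enrichment is low for the height of a peak where the background is raised. The Hand2 promoter region, chr8:57319686-57324310, had a highest fold enrichment of 2.18, 2.07, 2.25 and 2.13. At 8 h and in untreated cells that value came from another peak, downstream of the promoter window. The peak over the start site had 2.18, 2.07, 1.99 and 1.98. By its highest value the region ranked between 28.9 and 35.2, whereas its estimated read height ranked between 93.2 and 93.7 of 100 in every list.

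Around Hand2 12 of 15 regions were shared. At 1 h none of these rose and 1 fell past the rank limit (11.3% and 12.1% of all shared regions). At 8 h 1 rose and 1 fell (18.7% and 18.5%). Without treatment 2 rose and 2 fell (19.9% and 18.8%). The untreated calls included shifts of 12.6 points 35.7 kb downstream and -13.6 points 7.7 kb upstream. The strongest Hand2 region, in an intron of the long non-coding RNA Hdnr 32.8 kb downstream (chr8:57353325-57354258), had 6.35 in SB-431542, 6.17 at 1 h, 6.38 at 8 h and 5.79 in untreated cells, with shifts of less than 1 point. At its SB-431542 percentile of 96.3 this region could not be called higher. Its central 300 bp, chr8:57353641-57353940, are shown as the strongest region near Hand1 or Hand2, with a GC-rich SMAD element (GGCGCC) in capitals.
Hand2 32.8 kb downstream: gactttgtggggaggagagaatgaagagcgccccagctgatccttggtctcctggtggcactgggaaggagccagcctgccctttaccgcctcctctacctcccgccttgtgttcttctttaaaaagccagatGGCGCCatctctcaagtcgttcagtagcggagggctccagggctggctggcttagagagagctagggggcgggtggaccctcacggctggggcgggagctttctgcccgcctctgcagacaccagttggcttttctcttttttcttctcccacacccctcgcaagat
That element was held by 9 of the 102 regions (8.82%, against 2.66% of all regions) and by 11.9% of all promoters. The SMAD palindrome GTCTAGAC was found in none of the 102 regions (0.28% of all regions).

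One Hand2 region was lower in both states with a longer signal. It lay 2.90 kb upstream in an intron of Hand2os1, chr8:57317895-57318266, with 2.57 in SB-431542, 2.57 at 1 h, 1.97 at 8 h and 1.95 in untreated cells. The 8 h and untreated values lay below those of SB-431542 and 1 h. The ratio was 0.766 at 8 h (counting interval 0.666 to 0.881) and 0.757 in untreated cells (0.656 to 0.875), and read height differed by -0.63 and -0.77 on the log2 scale. A pair of weak regions, 39.9 kb upstream and 40.5 kb downstream, had peaks in SB-431542 and at 1 h only, and one 36.0 kb upstream had peaks of 1.70 at 8 h and 1.67 in untreated cells only.

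Kdr, which encodes a VEGF receptor, had a promoter whose values were close in the 4 lists. On chromosome 5, with its start site at 75978455, its promoter region chr5:75977556-75979355 had a fold enrichment of 4.46, 4.42, 4.30 and 4.45 on widths between 1736 and 1788 bp. The counting intervals of all 3 ratios held 1. Its GC content of 61.6% over the 250 bases before the start site (minus strand, chr5:75978456-75978705) was the highest of the 4 promoters shown, it held 16 CG dinucleotides where that of Mesp1 held 2, and none of the 12 motifs occurred in it.
Kdr promoter: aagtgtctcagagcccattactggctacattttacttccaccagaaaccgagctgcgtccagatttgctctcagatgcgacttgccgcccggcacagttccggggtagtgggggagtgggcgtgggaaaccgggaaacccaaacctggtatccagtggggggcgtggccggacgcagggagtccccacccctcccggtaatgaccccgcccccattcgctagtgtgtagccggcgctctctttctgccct

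The largest downward shift of rank of any shared region of the 9 genes lay within Kdr. A region 36.6 kb downstream over a coding exon, chr5:75941126-75942525, had 4.05 in SB-431542, 4.16 at 1 h, 3.63 at 8 h and 2.13 in untreated cells, on widths between 1186 and 1377 bp. The untreated value stood apart from the other 3, and the 8 h ratio was 0.896 (counting interval 0.807 to 0.995). The untreated ratio was 0.526 (counting interval 0.461 to 0.6002), the shift -49.98 points and the read height -1.03 on the log2 scale. Another 2 Kdr regions, 22.0 kb downstream and 12.0 kb upstream, had peaks between 2.01 and 2.17 in SB-431542 and at 1 h and none at 8 h or in untreated cells. In the other direction, a region 48.3 kb upstream had 2.55, 2.52, 3.04 and 3.09.

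Pdgfra, the receptor for platelet-derived growth factors, has 3 curated start sites on chromosome 5, at 75152251, 75152936 and 75156166. The first pair fell between the regions chr5:75148292-75151456 and chr5:75153042-75157332, each several kilobases wide and present in all lists. The upstream one had 2.67, 2.51, 2.57 and 2.41 and ended 795 to 811 bp before the first start site. The one over the third start site had 2.46, 2.53, 2.27 and 2.56. Neither was called in any comparison.

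By fold enrichment, the strongest region of all 9 genes was a Pdgfra region 33.1 kb upstream, in an intron of Gm19583, chr5:75118880-75119420. It had 7.20 in SB-431542, 5.89 at 1 h, 4.91 at 8 h and 5.25 in untreated cells. The ratio at 8 h was 0.681 (counting interval 0.585 to 0.793), while the shift of -9.22 points stayed under the limit of 10. At 30.6 kb upstream, chr5:75121550-75121765 held no peak in SB-431542 or at 1 h. Its fold enrichment was 2.22 at 8 h (-log10 q 5.33), while untreated cells had 2.56 (-log10 q 9.20). It was the strongest gain in untreated cells, and 300 bp around its centre, chr5:75121507-75121806, are shown for that reason and hold none of the 12 motifs.
Pdgfra 30.6 kb upstream: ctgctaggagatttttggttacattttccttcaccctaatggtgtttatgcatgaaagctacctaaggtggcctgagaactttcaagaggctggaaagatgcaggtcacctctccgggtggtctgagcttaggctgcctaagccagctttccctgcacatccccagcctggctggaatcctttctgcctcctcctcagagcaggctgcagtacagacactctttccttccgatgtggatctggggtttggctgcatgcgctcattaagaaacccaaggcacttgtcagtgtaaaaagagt
A region 40.3 kb upstream was higher at 8 h and in untreated cells, with 2.40, 2.46, 3.22 and 3.10. A pair of regions in the last part of the gene, 29.6 and 38.5 kb downstream, were lower at 1 h, with shifts of -29.6 and -29.5 points, with 3.15, 2.12, 2.73 and 3.04 for the first and 3.25, 2.16, 2.71 and 2.50 for the second. The second was also lower at 8 h and in untreated cells, with shifts of -12.0 and -19.2 points. Both 1 h ratios, 0.673 and 0.665, had counting intervals below 1 (upper bounds 0.903 and 0.859).

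Cdx1, on chromosome 18, had a promoter region whose values followed the time in Activin. It had a fold enrichment of 2.81 in SB-431542, 3.08 at 1 h, 3.58 at 8 h and 2.59 in untreated cells, on widths between 2086 and 2119 bp. The ratio to SB-431542 was 1.09 at 1 h (counting interval 1.04 to 1.16), 1.27 at 8 h (1.21 to 1.34) and 0.919 in untreated cells (0.866 to 0.976). Read height was 0.80 higher on the log2 scale at 8 h, the only higher call past 1.5 times in the Activin states. A neighbouring region 3.58 kb upstream was lower at 8 h, with 2.98, 2.67, 2.22 and 3.01, a shift of -24.6 points. Its local background at 8 h, 83.1 reads, was above the 70.7 of SB-431542, and its scaled read height was 0.20 higher on the log2 scale, so the direction there turned with the measure.

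The upstream window of Cdx1 runs into Pdgfrb. A region over the Pdgfrb promoter, 10.1 kb upstream of Cdx1, had 2.94, 2.74, 3.75 and 3.83, while its covered width went from 2744 and 2862 bp to 1576 and 1634 bp, and the part of the width in the higher means was not tested. A region 29.7 kb upstream in Pdgfrb had 2.07, 1.68, 2.33 and 2.53. Another 3 Cdx1 regions with peaks in SB-431542 had none at 8 h, 48.5 and 13.4 kb downstream and 22.4 kb upstream, and no peak was gained around Cdx1 in any comparison.

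Cdx2, on chromosome 5 with its start site at 147307249, shares its windows with Pdx1, Urad and Flt3. Its promoter region, chr5:147304155-147307581, had a fold enrichment of 2.69, 2.65, 3.00 and 2.57. The 8 h value was that of the stronger of 2 peaks, and the one over the start site, 1164 bp wide, had 2.32. By the stronger peak the promoter region was the only higher one of 11 shared regions at 8 h, by 10.7 points, and by area above background its shift was -7.675. The strongest, over the Pdx1 promoter 36.6 kb downstream, had 5.08, 5.53, 4.96 and 4.98. Peaks were gained in an intron of Flt3, one of them, 38.9 kb upstream (chr5:147346065-147346278), at 8 h alone with 2.41 (-log10 q 7.25), and the other, 31.9 kb upstream, with 1.97 at 8 h and 1.85 in untreated cells.

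**Figure D5:**
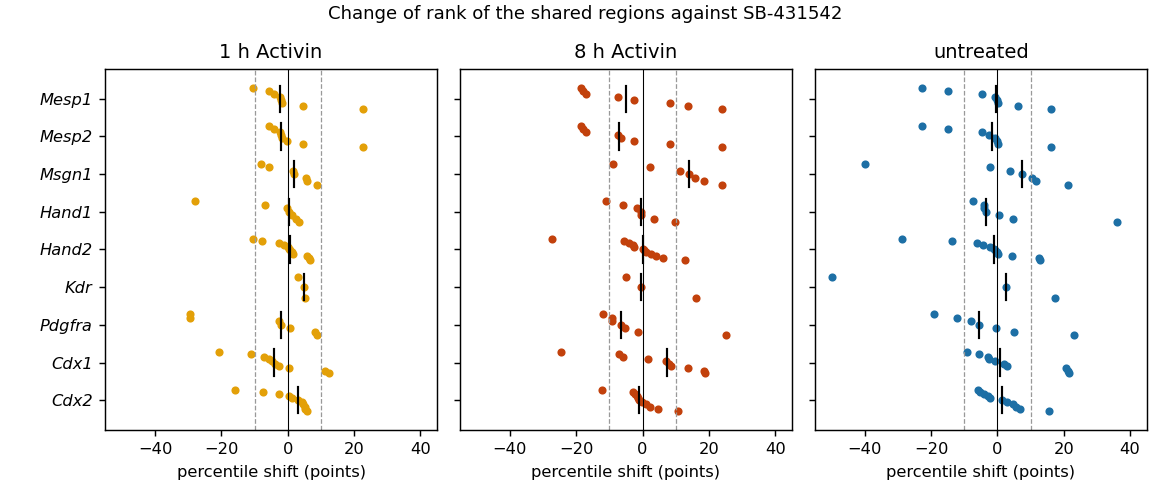
Change of percentile against SB-431542 (horizontal axis, points) for each shared region in the window of each gene, with the median as a black bar and the limits of 10 points as dashed lines. Msgn1 has its median at 14.1 points at 8 h, and the lowest point, -49.98, is the Kdr region in untreated cells.

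The 40 other mesoderm genes, among them T, Tbx6, Eomes, Mixl1, Gata4 and Etv2, had 507 regions outside the windows of the 9. At 8 h, 8.68% were gained and 9.86% lost, and 14.3% of their 350 shared regions were higher and 15.7% lower. The shares over all regions were 8.12%, 17.1%, 18.7% and 18.5%. In untreated cells the shares were 9.66%, 9.86%, 12.3% and 19.4%, against 10.6%, 15.6%, 19.9% and 18.8% over all regions. Some of these genes are named here after their values were seen. Mixl1, a homeobox gene of the primitive streak, gained peaks in 1 of 7 regions at 8 h and 3 in untreated cells and lost none. Eomes, a T-box factor gene needed for mesoderm and endoderm, had 3 of 11 shared regions higher at 8 h and none lower. At 1 h it had 4 higher and none lower, where 11.3% and 12.1% of all shared regions were. In untreated cells it had 4 higher and 1 lower. T (Brachyury) had 3 of 11 higher and none lower at 8 h, and in untreated cells 1 higher and 1 lower. Lfng, which modifies the Notch receptor in segmentation, lost peaks in 5 of 18 regions at 8 h and gained none, and Ripply2 lost 5 of 15 and gained 1.

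Among the 9 genes, the other motifs were counted in the same way. ZIC matches were found in 15 regions (14.7%, against 11.7%), T-box matches in 9 (8.82%, against 4.36%), TCF/LEF matches in 5 (4.9%, against 5.3%), GATA matches in 4 (3.92%, against 4.26%) and FOX matches (GTAAACA) in 3 (2.94%, against 4.34%). The FOXH1 match at Mesp2 was the only one among the 102 regions (0.98%, against 1.32%), and its variant AATACACA was found in none (1.67% of all regions). The E-box CATATG, bound by some bHLH factors, was found in 2 of the 102 regions and in 9.03% of all regions. CDX matches were found in 3 regions (2.94%, against 3.6%), and matches to the OCT motif ATGCAAAT in 2 of the 102 and in 2.73% of all regions. Both strands were searched, over the central 300 bp of each region and, separately, over the 300 bases of each RefSeq promoter.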

How the data were processed

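ATAC-seq was performed by the authors in 4 states, and GEO lists 48 libraries, 12 per state. Reads were trimmed (cutadapt 1.9.1), aligned to mm10 (BWA 0.6.2), filtered and merged over 2 biological replicates per state, and broad peaks were called with MACS2 2.1.1.20160309, with reads extended to 200 bp and no control library. The deposited peak lists hold fold enrichment, a ratio to local background, and -log10 values of p and q. No counts or depths were used, so depth is known only relative to the SB-431542 list. From these lists, peaks were joined into regions, assigned to RefSeq start sites (45723 curated transcripts of 26147 genes, GRCm38.p6) and compared by rank (Python 3.11.15, numpy 2.4.6, pandas 2.3.3, scipy 1.17.1; matplotlib 3.10.9 for plots). Read height and background were estimated by inverting the fold enrichment and the Poisson p-value, which is approximate because both are means along a peak. Counting intervals treat reads as independent and cover counting error only. Promoter sequences came from RefSeq's promoter table (7 of 9 genes matched), regions from the genome. The steps were tested on simulated data.

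With 1 merged list per state no test across samples was made. For each gene, the named regions were its promoter, its strongest region by fold enrichment and, per comparison, the shared region whose rank rose most, the one whose rank fell most, and the strongest gained and strongest lost region by -log10 q, and regions named beyond these were chosen after their values were seen. The genes, lists, motifs and limits were chosen with earlier results of these data known. 9 alternatives were tried, and 1 was added after seeing the data.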

Additional observations from a re-analysis of the deposited data

Results flagged for a closer look

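In 5 shared regions the rank against SB-431542 moved by more than 10 points up in one state and down in another. None of these differences was tested, and the comparisons share the SB-431542 list. The Hand1 region 18.3 kb downstream had shifts of -27.9 points at 1 h, -11 at 8 h and 36.2 in untreated cells. By area above background they were -9.49, -0.96 and 33.4 points, so neither fall passed the limit. The Cdx1 region 29.7 kb upstream, in Pdgfrb, had -20.7 at 1 h, 13.7 at 8 h and 21.5 in untreated cells. The Hand2 region 28.0 kb downstream had -10.6 at 1 h, 12.8 at 8 h and 12.8 in untreated cells. Its direction turned with the measure: by estimated read height (log2) it had -0.17 at 8 h and -0.07361 in untreated cells, by area above background -27.64 points at 8 h, and with peaks of a -log10 q of at least 5 the shifts were -0.30, 0.94 and 1.06. The Mesp1 region 37.2 kb downstream, in Wdr93, had -10.4 at 1 h and 13.8 at 8 h. The Cdx2 region 10.6 kb upstream, in Urad, had -12.3 at 8 h and 15.6 in untreated cells. It also turned, to -0.18 in untreated cells by read height (log2) and to 14.7 points at 8 h by area. By estimated read height only the Hand1 region passed 1.5 times, in untreated cells.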

How the results depend on the processing

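No paired analysis was possible because the authors merged the replicates of each state before calling peaks, and for the same reason no replicate could be left out. Of 96 shares recomputed, 77 stayed within 1.5 times. With peaks of a -log10 q of at least 5, lost at 1 h was 12.7% (15.4% of all regions at this setting), higher at 1 h 8.93% (12.6%), lower at 8 h 21.4% (20.9%), and in untreated cells gained 3.8% (9.4%), lost 6.33% (19.8%) and higher 10.7% (21.8%). With 50% cover, gained at 1 h was 4.9% (13.7%) and lost in untreated cells 16.7% (19.9%). With fold enrichment scaled by its median, higher and lower at 1 h were 1.52% (2.64%) and 3.03% (2.4%), higher at 8 h 9.09% (8.89%) and in untreated cells 6.06% (8.57%). With estimated read height they were 0% (0.436%) and 0% (0.0831%) at 1 h, 1.52% (4.17%) and 1.52% (3.35%) at 8 h, and 1.52% (3.95%) and 6.06% (4.79%) in untreated cells. With the area above background, chosen after seeing the data, higher at 8 h was 13.6% (18.1%). The other 5 alternatives (lists of equal length, merging within 200 bp, centres within 50 kb, protein-coding transcripts alone, width-weighted mean) moved no share of the early mesoderm genes past 1.5 times, but lists of equal length took the share of all regions gained at 8 h from 8.12% to 12.7%, against 14% for these genes.

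Of 876 shifts of named regions, 100 changed call and 10 that had been called changed direction. By read height (log2) these were Cdx2 10.6 kb upstream (-0.18, untreated), Mesp1 7.23 kb downstream (0.12, untreated), Hand2 28.0 kb downstream (-0.17 at 8 h, -0.07361 untreated) and Cdx1 3.58 kb upstream (0.20 at 8 h). By the width-weighted mean it was the region 9.24 kb downstream of Mesp2 (-13.6 points at 1 h). By area they were that region (-12.6 at 1 h), the Cdx2 promoter (-7.675 at 8 h), Cdx2 10.6 kb upstream (14.7 at 8 h) and Hand2 28.0 kb downstream (-27.64 at 8 h). A change of sign from a shift that had not been called was counted as a changed call. Cdx2 10.6 kb upstream at 1 h was such a case, with -7.31 points by rank and 18.25 by area. The cause was not tested.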
